A study of Mus musculus with 4 samples.

Results

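The genes described here are 43 genes of the cell cycle, out of 17476 genes in the count table of the series. They were chosen by name, with earlier results of these data known. Of the 43, 22 act in the G1/S transition and DNA replication, and 21 act in G2 and mitosis. RNA had been sequenced from myeloid-derived suppressor cells (MDSCs), immature myeloid cells able to restrain T cell responses, to find genes that differ between Trem2 mutant and wild-type (WT) cells. The Trem2 protein is a surface receptor of macrophages and related cells that binds lipids. The Trem2 mutant group comprised 2 libraries (Trem2 mutant 1 and Trem2 mutant 3, numbered as in the count table) and the WT group 2 libraries (WT 1 and WT 2), all of the strain C57BL/6 per the labels. In both groups the MDSCs had been grown in culture from bone marrow and injected into NRG males, an immunodeficient strain without lymphocytes. The recipients were 6 weeks old when they received subcutaneous TRAMP-C1 cells, a mouse prostate cancer line, and the MDSCs followed 4 weeks later. Tumours were taken 6 h after the injection and digested for 45 minutes, and the sort kept CD45+ CD11B+ GR1+ cells. The gate held no marker that separates injected cells from those of the recipient. The labels do not give the kind of mutation or say whether libraries came from separate animals, so the p-values reflect no more than the scatter of these samples, some of it perhaps technical.

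Cells that divide pass through an ordered programme of gene expression. In late G1, E2F transcription factors and cyclin E with CDK2 switch on the genes that load the MCM helicase at replication origins and copy the DNA. In G2 and mitosis, a later wave of genes encodes cyclin B with CDK1, the mitotic kinases, the spindle and the kinetochore, and the ubiquitin ligase APC/C that ends mitosis. The promoters of the first wave often carry E2F sites, and those of the later wave a CHR element near CCAAT boxes, through which the DREAM complex represses them in resting cells. In bone marrow, granulocyte progenitors divide up to the myelocyte stage, whereas mature neutrophils have left the cycle.

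The promoters show this division of the list in sequence. RefSeq promoters (GRCm38.p6, 250 bases before to 50 bases after the gene start, 27025 genes) were found for 36 of the 43 genes, 17 of the G2/M and 19 of the G1/S group. Both strands were searched for the CHR element TTTGAA, for CCAAT, and for 4 forms of the E2F site, TTTCCCGC, TTTCGCGC, TTTGCCGC and TTTGGCGC. CHR matches were found in 12 of 17 G2/M promoters (70.6%) and in 2 of 19 G1/S promoters (10.5%), against 18.1% of all promoters. E2F matches ran the other way, with 1 of 17 G2/M promoters (5.88%, Cdk1) and 8 of 19 G1/S promoters (42.1%), against 2.32% of all promoters. CCAAT was common throughout, in 15 of 17 G2/M promoters (88.2%), 13 of 19 G1/S promoters (68.4%) and 37.9% of all promoters. A match describes these letters in this window and is not a bound site.

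Stretches from 200 bases before to 12 bases after the start are shown for G2/M genes that carried the difference between genotypes, and for Kif11, which did not pass the test. Capitals mark every match on either strand (TTTGAA or TTCAAA for CHR, CCAAT or ATTGG for the CCAAT box).
Cenpf (chr1:189688075-189688286, minus strand): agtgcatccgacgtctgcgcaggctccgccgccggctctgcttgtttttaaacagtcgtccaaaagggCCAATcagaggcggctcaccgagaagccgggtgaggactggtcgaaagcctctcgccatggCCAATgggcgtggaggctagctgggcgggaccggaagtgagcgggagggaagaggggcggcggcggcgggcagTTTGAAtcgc
Top2a (chr11:99024178-99024389, minus strand): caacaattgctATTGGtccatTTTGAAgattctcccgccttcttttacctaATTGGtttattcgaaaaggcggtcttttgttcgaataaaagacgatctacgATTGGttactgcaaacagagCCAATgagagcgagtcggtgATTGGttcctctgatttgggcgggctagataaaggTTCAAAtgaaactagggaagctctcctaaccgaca
Mki67 (chr7:135716368-135716579, minus strand): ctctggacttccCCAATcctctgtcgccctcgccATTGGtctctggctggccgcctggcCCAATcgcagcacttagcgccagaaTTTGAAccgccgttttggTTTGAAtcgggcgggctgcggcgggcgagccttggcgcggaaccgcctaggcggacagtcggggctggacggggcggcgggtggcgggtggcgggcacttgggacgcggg
Hmgb2 (chr8:57511643-57511854, plus strand): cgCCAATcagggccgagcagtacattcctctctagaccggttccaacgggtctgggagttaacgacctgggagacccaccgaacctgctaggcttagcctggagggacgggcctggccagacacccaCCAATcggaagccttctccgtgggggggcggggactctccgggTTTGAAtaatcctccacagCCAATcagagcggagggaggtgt
Bub1 (chr2:127831848-127832059, minus strand): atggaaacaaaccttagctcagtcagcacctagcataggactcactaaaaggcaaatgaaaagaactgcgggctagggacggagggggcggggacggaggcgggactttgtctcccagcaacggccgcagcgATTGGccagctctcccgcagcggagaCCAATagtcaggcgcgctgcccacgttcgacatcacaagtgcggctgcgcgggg
Kif11 (chr19:37376182-37376393, plus strand): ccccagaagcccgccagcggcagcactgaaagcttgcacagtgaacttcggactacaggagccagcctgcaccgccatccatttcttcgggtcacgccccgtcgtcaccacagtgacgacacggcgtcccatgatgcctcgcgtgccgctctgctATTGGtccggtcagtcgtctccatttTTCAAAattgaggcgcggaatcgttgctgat
Mki67 and Top2a each held 2 CHR matches and Hmgb2, Kif11 and Cenpf 1 in the stretch shown, in Cenpf just past the start. Bub1 had CCAAT matches and no CHR match, and Birc5 had no match to any of the motifs in the whole window searched. Of the 6 G2/M promoters whose genes passed the test given further on, 4 held a CHR match, and of the 11 that did not pass, 8 did.

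For the G1/S group, Cdk2 is shown as a gene that rose, and Mcm5 and Mcm6 as helicase genes that did not pass. Capitals mark E2F matches (the 4 forms above and their reverse complements) and CCAAT or ATTGG.
Cdk2 (chr10:128705040-128705251, minus strand): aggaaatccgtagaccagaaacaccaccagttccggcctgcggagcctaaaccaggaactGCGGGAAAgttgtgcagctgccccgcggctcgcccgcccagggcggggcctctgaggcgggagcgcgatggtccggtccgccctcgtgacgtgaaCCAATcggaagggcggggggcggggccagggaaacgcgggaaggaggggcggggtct
Mcm5 (chr8:75109309-75109520, plus strand): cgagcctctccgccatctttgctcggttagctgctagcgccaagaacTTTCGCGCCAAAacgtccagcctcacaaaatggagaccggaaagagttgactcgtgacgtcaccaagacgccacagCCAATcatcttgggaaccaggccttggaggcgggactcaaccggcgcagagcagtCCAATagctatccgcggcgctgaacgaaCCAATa
Mcm6 (chr1:128359694-128359905, minus strand): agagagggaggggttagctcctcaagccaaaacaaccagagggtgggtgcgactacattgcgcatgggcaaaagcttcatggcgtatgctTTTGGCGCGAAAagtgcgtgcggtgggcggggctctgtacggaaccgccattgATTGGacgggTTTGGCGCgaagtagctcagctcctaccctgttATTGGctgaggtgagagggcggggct
In Mcm5 and Mcm6 a pair of E2F matches on opposite strands overlap, and Mcm6 holds another farther down. Cdt1, which was lower in the mutant libraries, had an E2F match 33 bases past its start.

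**Figure D1:**
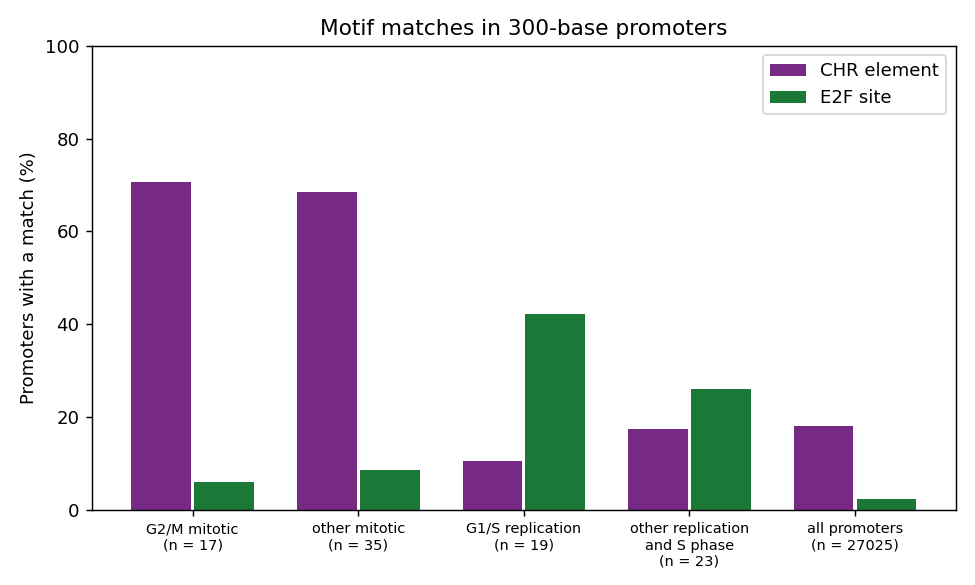
Share of 300-base promoters (y axis, percent) with at least 1 match to a CHR element or an E2F site, for the 2 groups of the list, other mitotic and other replication genes, and all promoters (x axis). CHR matches reach 70.6% in the G2/M group and 10.5% in the G1/S group, and E2F matches 5.88% and 42.1%.

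Library totals were 10306674 and 9820893 reads in Trem2 mutant 1 and Trem2 mutant 3, against 8037733 and 8077966 in WT 1 and WT 2. Trem2 was at 22.9 and 20.96 CPM (reads relative to the library total, scaled between libraries by TMM) in the mutant libraries, against 44.2 and 52.2 CPM in the WT libraries. This gave a log2 fold change of −1.14 (SE 0.125, adjusted p = 0.00157 by edgeR), and gene-level counts do not say where in the gene the reads lie. Trem2 mutant 1 stood apart in that Gm42418, a locus overlapping ribosomal RNA, took 13.9% of its reads, against 0.418% in Trem2 mutant 3, 1.04% in WT 1 and 0.258% in WT 2. Xist, the RNA of the inactive X chromosome of female cells (named after its values were seen), had 6928 and 9117 reads in the mutant libraries and 2 and 3 in the WT libraries, so the sex of the cells and the genotype cannot be told apart. All 43 genes passed the filter on low counts, with 14 to 1265 reads in a library, so none was left out. Pcna, Tyms, Ccnb1, Ccnb2 and Stmn1 have annotated processed pseudogenes, and how reads shared with such copies were counted is not given.

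The mutant libraries had more of many G2/M genes, and G1/S genes lay on both sides of WT. Of 21 G2/M genes, 6 rose, 0 fell and 15 did not pass (edgeR quasi-likelihood test, Benjamini-Hochberg adjusted p under 0.05 over 14239 genes). Of all genes tested, 9.55% rose and 3.6% fell. The 6 were Cenpf, Birc5, Bub1, Top2a, Hmgb2 and Mki67. Of 22 G1/S genes, 1 rose (Cdk2), 1 fell (Cdt1) and 20 did not pass. The median log2 fold change was 1.08 over the G2/M genes and 0.03 over the G1/S genes, against −0.02 over all genes tested. All 21 G2/M genes had a fold change above 0, as did 13 of the 22 G1/S genes. In 18 G2/M genes both mutant libraries lay above both WT libraries, a pattern seen in 28.9% of all genes, and in 3 (Ccna2, Aurka and Cdc20) the groups overlapped. Among G1/S genes both mutant libraries lay above in 7, below in 4 (31.7% of all genes), and overlapped with WT in 11. Scaling by library totals alone moved the median of all genes to −0.40. Under it 5 G2/M genes rose, 0 G1/S genes rose (4.56% of all genes rose) and 4 G1/S genes fell, namely Cdt1, Mcm2, Pcna and Rfc4 (30.7% of all genes fell).

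The G2/M difference rested unevenly on the libraries. All 21 were higher in Trem2 mutant 1 than in Trem2 mutant 3, by a median ratio of 1.87, whereas WT 1 was above WT 2 in 7 of 21, with a median ratio of 0.90. Over all genes, Trem2 mutant 1 was above Trem2 mutant 3 in 49.5%, with a median ratio of 0.998. Against the WT mean, the median G2/M gene stood at 2.74 in Trem2 mutant 1 and 1.37 in Trem2 mutant 3. In the fits that follow, each lacking 1 library, the lone library takes its spread from the other group. Counts of rises there also depend on which pair of libraries sets the spread. Without Trem2 mutant 1, 4 G2/M genes rose (9.98% of all genes rose in that fit) and the median log2 fold change was 0.47. Without Trem2 mutant 3, 20 rose (14.2% of all genes) with a median of 1.47. Without WT 1, 1 rose (3.25% of all genes), and without WT 2, 1 rose (4.8% of all genes), with medians of 0.92 and 1.24. G1/S genes also stood higher in Trem2 mutant 1 than in Trem2 mutant 3, in 21 of 22, but by a median ratio of 1.17. Without Trem2 mutant 3, 5 of them rose, with Mcm6, Rrm1, Rrm2 and Uhrf1 beside Cdk2, and without WT 1 or without WT 2, 0 rose. In these bulk libraries, a different number of dividing cells and a different amount of these RNAs per cell cannot be told apart.

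**Figure D2:**
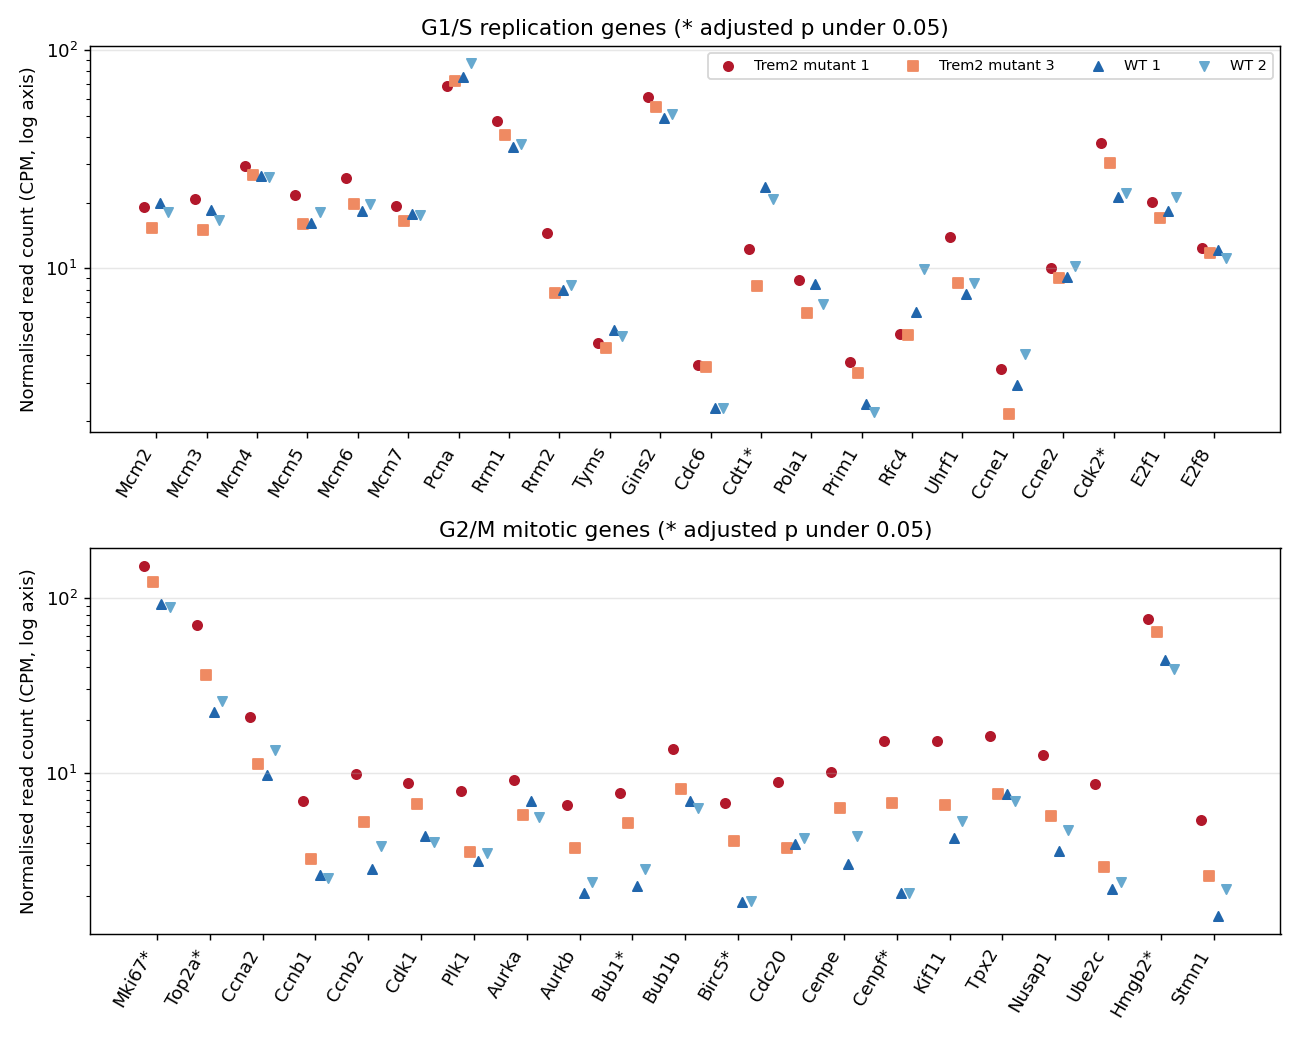
Normalised read count (CPM, log y axis) of each gene (x axis) in the 4 libraries, with G1/S genes above and G2/M genes below. Points are single libraries, and stars mark adjusted p under 0.05. Trem2 mutant 1 is the highest point for all 21 G2/M genes, and Trem2 mutant 3 mostly lies between it and the WT libraries.

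The balance of the phases within a library does not depend on scaling between libraries. The geometric mean over the 21 G2/M genes was 13.6 and 7.37 CPM in Trem2 mutant 1 and Trem2 mutant 3, against 4.94 and 5.43 CPM in WT 1 and WT 2. Over the 22 G1/S genes it was 14.8 and 11.98 CPM in the mutant libraries, against 12.7 and 13.2 CPM in the WT libraries. The ratio of G2/M to G1/S was therefore 0.922 in Trem2 mutant 1 and 0.615 in Trem2 mutant 3, against 0.389 in WT 1 and 0.410 in WT 2. As means these are 0.768 ± 0.217 in mutant and 0.400 ± 0.0153 in WT libraries (SD, n = 2 each). Both mutant libraries lay above both WT libraries, and the mutant libraries differed from each other more than the WT libraries did.

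**Figure D3:**
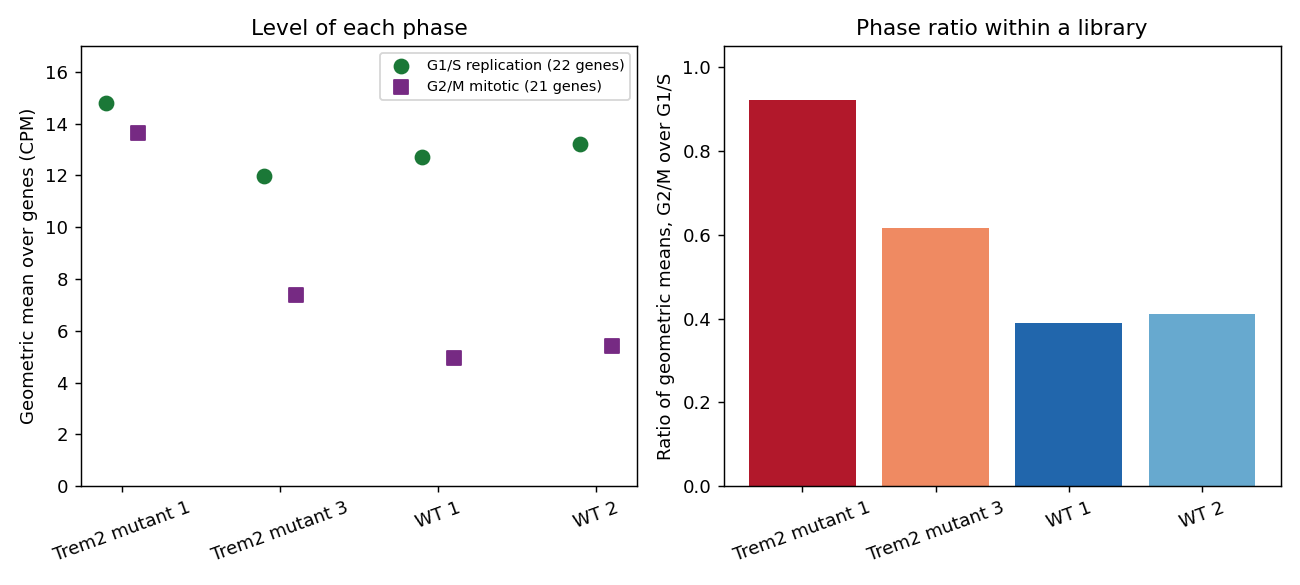
Left, geometric mean level (CPM, y axis) of the 22 G1/S and 21 G2/M genes in each library. Right, ratio of the G2/M to the G1/S geometric mean within each library. The ratio is 0.922 and 0.615 in the mutant libraries, against 0.389 and 0.410 in the WT libraries, while the G1/S level stays between 11.98 and 14.8 CPM.

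All 3 genes of chromosome structure rose, where 9.55% of all genes rose. These 3 also had the most reads of the G2/M genes in every library. Hmgb2 (ENSMUSG00000054717, GRCm38 chromosome 8, 57511907 to 57515999, plus strand), a DNA-bending chromatin protein, had 75.6 and 63.6 CPM in the mutant libraries, against 44.2 and 39.3 CPM in the WT libraries. Its log2 fold change of 0.74 had an adjusted p of 0.00692 (SE 0.117, edgeR). It was the single G2/M gene still called without WT 1 (0.82), and its call was lost without WT 2 (0.65, adjusted p = 0.0549). Mki67 (ENSMUSG00000031004, chromosome 7, 135689784 to 135716361, minus strand), the Ki-67 antigen that coats mitotic chromosomes and is the standard marker of dividing cells, had 152 and 123 CPM in the mutant libraries, against 92.0 and 88.0 CPM in the WT libraries. That is a log2 fold change of 0.61 (SE 0.108, edgeR adjusted p = 0.0109), lost without WT 1 (adjusted p = 0.0680) and without WT 2 (0.0725). Top2a (ENSMUSG00000020914, chromosome 11, 98992943 to 99024189, minus strand), the topoisomerase that untangles sister chromatids, had 69.7 and 36.3 CPM in the mutant libraries, against 22.4 and 25.8 CPM in the WT libraries. Its log2 fold change of 1.13 (SE 0.274, edgeR adjusted p = 0.0343) became 0.60 when Trem2 mutant 1 was left out and 1.55 when Trem2 mutant 3 was. The Top2a call was lost without WT 1 (adjusted p = 0.167) and without WT 2 (0.0806). For all 3 genes the groups did not overlap, and the gap between the mutant libraries was widest for Top2a.

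Kinetochore and chromosomal passenger genes held the largest changes of the list. Cenpf (ENSMUSG00000026605, chromosome 1, 189640606 to 189688086, minus strand), a large kinetochore protein that builds up in G2, had 127 and 63 reads in the mutant libraries, against 19 and 19 in the WT libraries. In CPM this was 15.2 and 6.77 in mutant, against 2.07 and 2.08 in WT libraries, a 5.24-fold rise (log2 fold change 2.39, SE 0.427, edgeR adjusted p = 0.0112). Without Trem2 mutant 1 the log2 fold change was 1.71 and still called, and without WT 1 the call was lost (adjusted p = 0.0585). Birc5 (ENSMUSG00000017716, chromosome 11, 117849251 to 117855743, plus strand), survivin, a subunit of the chromosomal passenger complex, had 6.71 and 4.08 CPM in the mutant libraries, against 1.85 and 1.86 CPM in the WT libraries. It rose 2.88-fold (log2 fold change 1.53, SE 0.349, edgeR adjusted p = 0.0281), and the call was lost without WT 1 (adjusted p = 0.145), WT 2 (0.111) or Trem2 mutant 1 (0.0871). Cenpe, the kinetochore motor, had 10.2 and 6.34 CPM in mutant, against 3.05 and 4.38 CPM in WT libraries, and did not pass (log2 fold change 1.14, edgeR adjusted p = 0.0530). In each of the 3, both mutant libraries lay above both WT libraries, with Trem2 mutant 1 the higher.

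Among genes of the spindle checkpoint and the APC/C, 1 of 4 rose, where 9.55% of all genes rose. Bub1 (ENSMUSG00000027379, chromosome 2, 127801122 to 127831865, minus strand), a checkpoint kinase of the kinetochore, had 7.67 and 5.16 CPM in the mutant libraries, against 2.28 and 2.85 CPM in the WT libraries. It rose 2.48-fold (log2 fold change 1.31, SE 0.310, edgeR adjusted p = 0.0316), and the call was lost without WT 1 (adjusted p = 0.187), WT 2 (0.0866) or Trem2 mutant 1 (0.0874). Ube2c, the ubiquitin-conjugating enzyme of the APC/C, had an equal fold but did not pass: 8.62 and 2.90 CPM in mutant, against 2.18 and 2.41 CPM in WT libraries (log2 fold change 1.31, SE 0.506, edgeR adjusted p = 0.131). Trem2 mutant 1 had 2.97 times the Ube2c level of Trem2 mutant 3, the widest gap of the list. Cdc20, the activator of the APC/C, was high in a single library, with 8.86 and 3.76 CPM in mutant, against 3.92 and 4.27 CPM in WT libraries. The Cdc20 locus overlaps Elovl1 on the opposite strand, which had 588 and 630 reads in mutant, against 521 and 498 in WT libraries. Bub1b, the checkpoint protein BubR1, had 13.8 and 8.06 CPM in mutant, against 6.96 and 6.35 CPM in WT libraries (log2 fold change 0.71, edgeR adjusted p = 0.137).

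Of 7 mitotic cyclin and kinase genes, 0 passed the test with edgeR, DESeq2 or limma-voom. An unadjusted edgeR p under 0.05 was found for 4 of them, and for 4283 of all 14239 genes tested. Cdk1, the mitotic kinase, came nearest, with 8.74 and 6.66 CPM in mutant, against 4.35 and 4.05 CPM in WT libraries (log2 fold change 0.87, 95% interval 0.30 to 1.44, edgeR adjusted p = 0.0574). Its partner Ccnb1, cyclin B1, had 6.95 and 3.22 CPM in mutant, against 2.61 and 2.52 CPM in WT libraries (log2 fold change 0.97, edgeR adjusted p = 0.152). Ccnb2, cyclin B2, had 9.82 and 5.27 CPM in mutant, against 2.83 and 3.83 CPM in WT libraries (log2 fold change 1.17, edgeR adjusted p = 0.0693). Ccna2, cyclin A2, which acts from S phase into mitosis, had 20.96 and 11.3 CPM in mutant, against 9.79 and 13.5 CPM in WT libraries. Trem2 mutant 3 thus fell between the WT libraries, and the Ccna2 locus overlaps Exosc9 on the opposite strand. Aurkb, the kinase of the chromosomal passenger complex, had 6.59 and 3.76 CPM in mutant, against 2.07 and 2.41 CPM in WT libraries (log2 fold change 1.20, edgeR adjusted p = 0.0665). Plk1, which drives centrosome maturation and mitotic entry, was at 7.91 and 3.55 CPM in mutant, against 3.15 and 3.50 CPM in WT libraries. Aurka, the spindle pole kinase, was at 9.10 and 5.80 CPM in mutant, against 6.96 and 5.58 CPM in WT libraries, with a log2 fold change of 0.24 (95% interval −0.40 to 0.88), the smallest of the G2/M group. Without Trem2 mutant 3, Cdk1, Ccna2, Ccnb1, Ccnb2, Plk1 and Aurkb passed, and Aurka did not. With Trem2 mutant 1, WT 1 or WT 2 left out instead, 0 of the 7 passed, and the log2 fold changes of Ccnb1 and Ccnb2 were 0.34 and 0.67 in the fit lacking Trem2 mutant 1.

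Of the 4 spindle genes, 0 passed the test with edgeR, DESeq2 or limma-voom. An unadjusted edgeR p under 0.05 was found for 3 of them, and for 4283 of all 14239 genes tested. Kif11, the motor that pushes spindle poles apart, had 15.2 and 6.56 CPM in the mutant libraries, against 4.24 and 5.36 CPM in the WT libraries (log2 fold change 1.17, SE 0.392, edgeR adjusted p = 0.0931). Nusap1, a microtubule-bundling protein, had 12.7 and 5.70 CPM in mutant, against 3.59 and 4.71 CPM in WT libraries (log2 fold change 1.14, edgeR adjusted p = 0.0986). Stmn1, stathmin, which destabilises microtubules, was at 5.39 and 2.58 CPM in mutant, against 1.52 and 2.19 CPM in WT libraries. Tpx2, the activator of Aurora A on the spindle, was at 16.2 and 7.63 CPM in mutant, against 7.61 and 6.90 CPM in WT libraries, so that Trem2 mutant 3 barely exceeded WT 1. Ratios of Trem2 mutant 1 to Trem2 mutant 3 were 2.09 to 2.32 in these 4 genes. Of the 21 G2/M genes, 16 had a 95% interval of the log2 fold change that lay above 0, before adjustment over all genes. An interval that excludes 0 is equivalent to an unadjusted edgeR p under 0.05. In either direction, 4283 of all 14239 genes tested met that threshold.

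**Figure D4:**
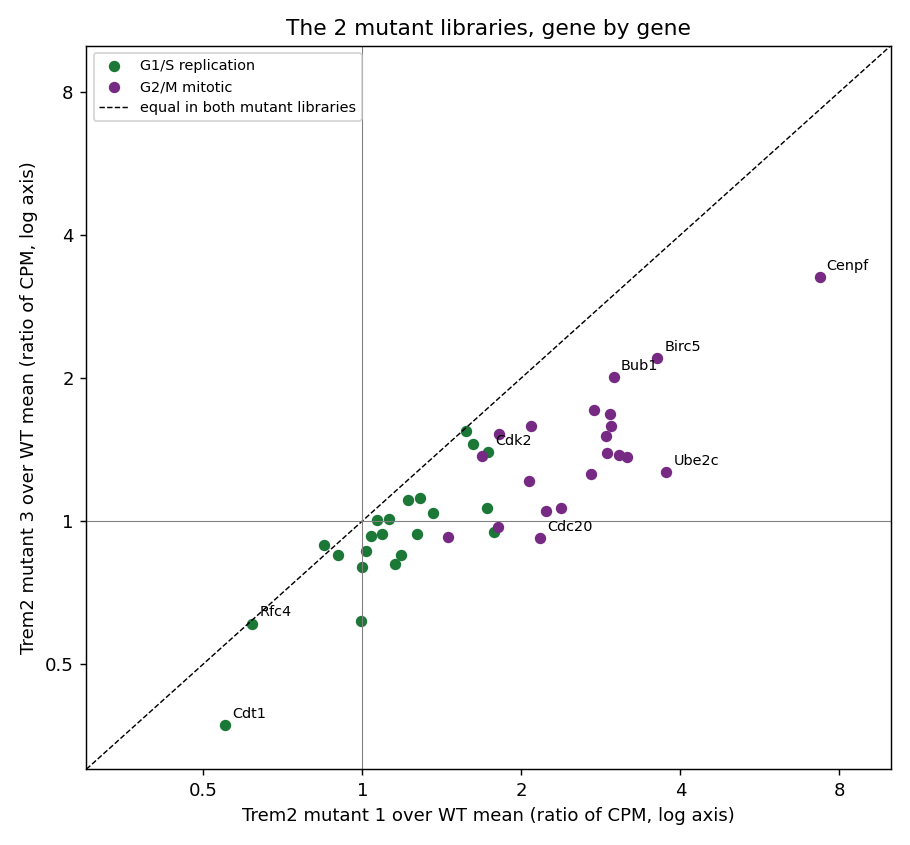
Level in Trem2 mutant 1 (x axis) and Trem2 mutant 3 (y axis), each as a ratio to the WT mean of CPM, on log axes, with 1 point per gene and the dashed line at equality. G2/M genes lie below the line, at a median of 2.74 in Trem2 mutant 1 and 1.37 in Trem2 mutant 3, and Cdt1 is low in both.

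In the G1/S group, the helicase genes Mcm2 to Mcm7, whose products unwind DNA at the fork, lay close to WT. Their log2 fold changes ran from −0.16 (Mcm2) to 0.26 (Mcm6), with a median of 0.05. With edgeR, DESeq2 or limma-voom, 0 of 6 passed. An unadjusted edgeR p under 0.05 was found for 0 of the 6, and for 4283 of all 14239 genes tested. Mcm4 had 29.6 and 26.7 CPM in mutant, against 26.4 and 26.3 CPM in WT libraries, with a 95% interval of −0.17 to 0.36. Of the 22 G1/S genes, 15 had an interval that stayed within a 2-fold change in either direction. The share of all genes with such an interval was not worked out, so the count does not set these genes apart. Mcm2 had 19.0 and 15.3 CPM in mutant, against 20.02 and 18.2 CPM in WT libraries. Scaled by library totals alone, Mcm2 fell and the signs of Mcm3 to Mcm7 turned.

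Cdt1 and Cdc6, which together load the helicase at origins, had fold changes of opposite sign. Cdt1 (ENSMUSG00000006585, chromosome 8, 122568015 to 122573554, plus strand) had 12.2 and 8.28 CPM in the mutant libraries, against 23.6 and 20.9 CPM in the WT libraries, with no overlap. It fell 2.18-fold (log2 fold change −1.13, SE 0.198, edgeR adjusted p = 0.0105). Its log2 fold change became −1.42 when Trem2 mutant 1 was left out and −0.85 when Trem2 mutant 3 was, and its call was lost without WT 1 (−1.03, adjusted p = 0.0727). Cdc6 had 3.59 and 3.55 CPM in mutant, against 2.28 and 2.30 CPM in WT libraries, a log2 fold change of 0.64 that did not pass (SE 0.291, edgeR adjusted p = 0.188). Gins2, a subunit of the GINS complex that completes the active helicase, had 60.9 and 55.1 CPM in mutant, against 48.7 and 50.9 CPM in WT libraries (edgeR adjusted p = 0.176). The Gins2 locus overlaps Gse1 on the opposite strand, so its reads are uncertain.

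Cdk2 (ENSMUSG00000025358, chromosome 10, 128697939 to 128705031, minus strand), the kinase that starts S phase with cyclin E, was the G1/S gene that rose. It had 37.6 and 30.3 CPM in the mutant libraries, against 21.3 and 22.1 CPM in the WT libraries (log2 fold change 0.64, SE 0.136, edgeR adjusted p = 0.0211), and the groups did not overlap. The call was lost without WT 1 (adjusted p = 0.142), without WT 2 (0.0894) and under library totals alone (0.26, adjusted p = 0.252). Its locus overlaps Pmel on the opposite strand, which had 29 and 31 reads in mutant, against 17 and 17 in WT libraries. Of its cyclin partners, Ccne1 had 3.47 and 2.15 CPM in mutant, against 2.94 and 4.05 CPM in WT libraries, and Ccne2 10.1 and 9.03 CPM in mutant, against 9.14 and 10.3 CPM in WT libraries. Neither passed, and for both the groups overlapped. E2f1, the activator of S phase genes, was at 20.1 and 17.1 CPM in mutant, against 18.3 and 21.3 CPM in WT libraries (log2 fold change −0.09, 95% interval −0.44 to 0.25). E2f8, a repressor of the same targets, was at 12.5 and 11.7 CPM in mutant, against 12.2 and 11.2 CPM in WT libraries (0.05, −0.33 to 0.43).

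Of 7 genes of the replication fork and of nucleotide supply, 0 passed with edgeR, DESeq2 or limma-voom. An unadjusted edgeR p under 0.05 was found for 2 of them, and for 4283 of all 14239 genes tested. Pcna, the sliding clamp of DNA polymerases, had 68.6 and 72.4 CPM in mutant, against 75.6 and 86.9 CPM in WT libraries (log2 fold change −0.20, edgeR adjusted p = 0.205), and was the single gene of the 43 that was lower in Trem2 mutant 1 than in Trem2 mutant 3. Rfc4, a subunit of the loader of that clamp, had 5.03 and 4.94 CPM in mutant, against 6.31 and 9.96 CPM in WT libraries (log2 fold change −0.70, edgeR adjusted p = 0.135), and its locus overlaps Eif4a2 on the opposite strand. Prim1, the primase subunit that makes RNA primers, had 3.71 and 3.33 CPM in mutant, against 2.39 and 2.19 CPM in WT libraries (log2 fold change 0.62, edgeR adjusted p = 0.209). Pola1, the catalytic subunit of the polymerase that extends those primers, had a log2 fold change of −0.03 and overlapping groups. The subunits of ribonucleotide reductase, which makes deoxynucleotides, stood at 47.2 and 41.1 CPM in mutant, against 36.1 and 37.3 CPM in WT libraries for Rrm1. For Rrm2, the subunit restricted to S phase, the values were 14.5 and 7.74 CPM in mutant, against 7.94 and 8.43 CPM in WT libraries, high in Trem2 mutant 1 alone. Tyms, which makes thymidylate, had a log2 fold change of −0.20 (edgeR adjusted p = 0.625). Uhrf1, which guides methylation of newly made DNA, had 13.9 and 8.60 CPM in mutant, against 7.61 and 8.54 CPM in WT libraries (log2 fold change 0.47, edgeR adjusted p = 0.260).

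**Figure D5:**
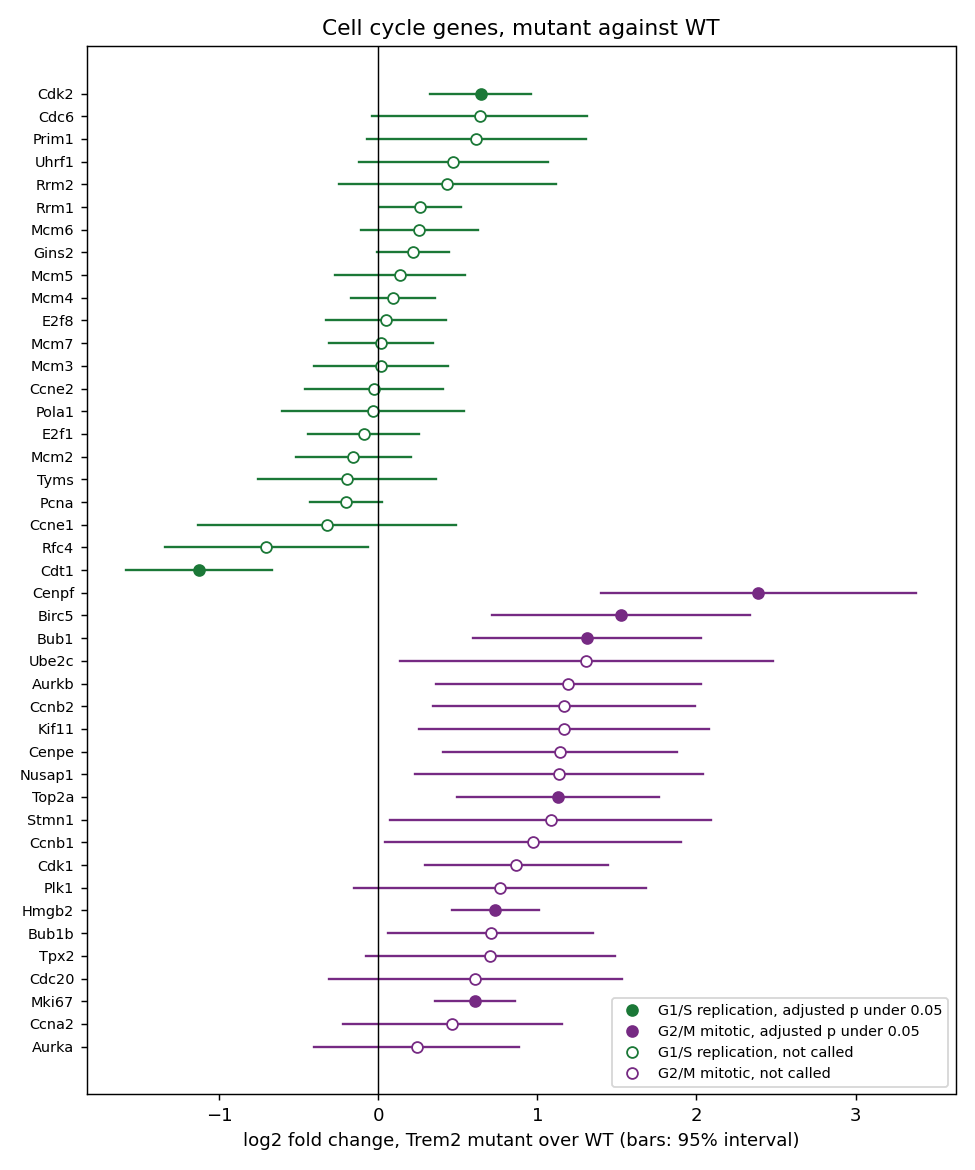
Log2 fold change of mutant over WT (x axis, bars are 95% intervals of the edgeR fit) for each gene (y axis), G1/S genes above and G2/M genes below. Filled points have an adjusted p under 0.05. The G2/M points all lie to the right of 0, from 0.24 to 2.39, and the G1/S points lie on both sides, from −1.13 to 0.64.

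Per kilobase of annotated exon, levels within the list differed far more between genes than between genotypes. Pcna was highest, with a mean of 29.4 CPM per kb in mutant and 33.9 CPM per kb in WT libraries, followed by Hmgb2 at 23.2 in mutant and 13.9 in WT libraries. Mki67 stood at 13.7 CPM per kb in mutant and 8.95 in WT libraries. Cenpf was the lowest in WT libraries, at 0.134 CPM per kb, and reached 0.712 in mutant libraries.

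Other genes of the cycle were listed by name, also with earlier results of these data known. Of 42 other mitotic genes tested, 5 rose and 0 fell, a count near the 9.55% of all genes that rose. Their median log2 fold change was 0.68, against −0.02 over all genes, and both mutant libraries lay above both WT libraries in 29 (28.9% of all genes). The 4 largest of these rises were Kif4, a chromosome-bound motor (9.46 and 5.80 CPM in mutant, against 2.94 and 3.61 CPM in WT libraries), Racgap1 and Prc1, which act in cytokinesis, and Lmnb1, lamin B1. Their log2 fold changes were 1.21, 1.15, 1.11 and 0.81. Without WT 1, 0 of the 42 rose (3.25% of all genes), and without WT 2, 1 (4.8% of all genes). With Trem2 mutant 1 left out, 2 rose (9.98% of all genes), and with Trem2 mutant 3 left out, 21 (14.2% of all genes). Under library totals alone 8 rose and 2 fell, where 4.56% of all genes rose and 30.7% fell. Of 31 other replication and S phase genes tested, 0 rose and 1 fell, with a median of −0.07. That gene was Pold1, the catalytic subunit of DNA polymerase delta, at 15.7 and 10.6 CPM in mutant, against 23.2 and 24.9 CPM in WT libraries (log2 fold change −0.87, SE 0.188, edgeR adjusted p = 0.0226). The fall was not called without WT 1 or without WT 2, where 0 genes of the list fell, without Trem2 mutant 3 the list had 1 rise and 3 falls, and under library totals alone 11 of the list fell (30.7% of all genes).

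Some regulators upstream of S phase and some brakes on the cycle rose, where 9.55% of all genes rose and 3.6% fell. Of 18 G1 cyclins, kinases, E2Fs and pocket proteins, 4 rose and 0 fell (median log2 fold change 0.18). These were E2f2, an activating E2F (88.6 and 71.1 CPM in mutant, against 46.1 and 39.1 CPM in WT libraries), its dimerisation partner Tfdp1, and the D-type cyclin genes Ccnd3 and Ccnd2. Of 16 CDK inhibitors and antiproliferative genes, 6 rose and 0 fell (median 0.43). Among them Cdkn2d, the inhibitor p19, had 33.2 and 28.3 CPM in mutant, against 16.2 and 12.5 CPM in WT libraries (log2 fold change 1.10, edgeR adjusted p = 0.00513). Cdkn2b, Btg2 and Ccng2 had log2 fold changes of 1.83, 0.85 and 0.67, Cdkn2b on only 16 and 12 reads in mutant, against 4 and 4 in WT libraries. Cdkn2b passed narrowly (edgeR adjusted p = 0.0496). With upper-quartile scaling, no filter, a stricter filter, DESeq2 or limma-voom, 5 of this second list rose. Without WT 1, 2 genes of the first list and 1 of the second rose (3.25% of all genes), and without WT 2, 2 and 4 (4.8%). With Trem2 mutant 1 left out, 5 of the first list rose, and 7 of the second rose and 1 fell (9.98% of all genes rose). With Trem2 mutant 3 left out, 7 and 8 rose (14.2%). Under library totals alone the first list had 2 rises and 4 falls, and the second 2 rises and 3 falls, where 4.56% of all genes rose and 30.7% fell.

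Many markers of cell types, including those of the sorted myeloid cells, differed between the genotypes. Their part in the changes of the cycle genes was not tested. Of all genes tested, 9.55% rose and 3.6% fell. The shares of all genes in fits without a library are those given above for the cycle genes. All 6 markers of neutrophil progenitors lay higher in both mutant than in both WT libraries (28.9% of all genes). They were also higher in Trem2 mutant 1 than in Trem2 mutant 3, by a median ratio of 1.86. Their summed level was 91.4 and 48.0 CPM in the mutant libraries, against 25.1 and 31.3 CPM in the WT libraries. Of the 6, 3 rose, namely Elane (81 and 37 reads in mutant, against 7 and 5 in WT libraries), Mpo and Cebpe. Leaving out WT 1 left 1 called rise among the 6, leaving out WT 2 left 2, and leaving out Trem2 mutant 3 gave 6. All 8 late granulocyte markers rose, with a summed level of 16425 and 12100.4 CPM in mutant, against 2489 and 2302 CPM in WT libraries. Mmp8 made up most of the WT sums (2188 and 2025 CPM) and rose 1.34-fold (edgeR adjusted p = 0.0490), whereas Ltf rose 98.7-fold. Under library totals alone, upper-quartile scaling, a stricter filter or the bias-adjusted edgeR form, 7 of the 8 rose. The late granulocyte markers, and all 8 monocyte and macrophage markers, were also higher in Trem2 mutant 1 than in Trem2 mutant 3. The median ratios of the 2 lists were 1.34 and 1.42. Ly6g, which encodes an antigen of the GR1 gate, was at 144 and 123 CPM in mutant, against 5.66 and 7.22 CPM in WT libraries.

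Of 8 monocyte and macrophage markers, 4 rose, where 9.55% of all genes rose and 3.6% fell. The 8 summed to 1791 and 1554 CPM in mutant, against 1400.5 and 1480 CPM in WT libraries. The higher sum in mutant libraries rested mainly on Ly6c2. The 4 that rose were Ly6c2 (378 and 282 CPM in mutant, against 26.9 and 24.8 CPM in WT libraries), C1qa, C1qb and Apoe. Csf1r had 704 and 701 CPM in mutant, against 846 and 864 CPM in WT libraries, and Adgre1 336 and 323 CPM in mutant, against 372 and 386 CPM in WT libraries, both without passing. With limma-voom 1 marker of the list fell, under library totals alone 2 fell, without WT 1 only 1 rose, and without Trem2 mutant 3 the count of rises was 6. All 5 eosinophil markers tested rose (3 without WT 1 and 3 without WT 2), and they summed to 158 and 197 CPM in mutant, against 72.4 and 71.3 CPM in WT libraries. Fibroblast and mural markers rose in 3 of 6 tested (9.55% of all genes), summed at 504 and 457 CPM in mutant, against 225 and 169 CPM in WT libraries. Erythroid markers rose in 3 of 4 tested (9.55% of all genes). They summed to 61.3 CPM in Trem2 mutant 1 and 164 CPM in Trem2 mutant 3, against 6.74 and 27.6 CPM in WT libraries. Of these 4, 1 rose with DESeq2, 1 without WT 1, and 2 each with limma-voom, without WT 2 and without Trem2 mutant 3, and the median log2 fold change of 2.61 ran from 1.87 to 3.94 when a library was left out. Of 2 endothelial markers tested 1 rose, Pecam1, and 0 rose without WT 1, without WT 2 or under library totals alone. Kdr, also tested, did not pass (2.87 and 3.12 CPM in mutant, against 1.63 and 1.64 CPM in WT libraries). Cdh5 had only 7 and 4 reads in mutant, against 1 and 2 in WT libraries, and Tek and Cldn5 were not analysed here. The sort was on CD45, CD11B and GR1, and whether tumour cells passed it was not tested. Of 7 epithelial markers, Krt5, Krt19 and Cldn4 were not analysed here, Epcam had 3 and 3 reads in mutant, against 11 and 3 in WT libraries, and Krt8 5 and 5 reads in mutant, against 0 and 2 in WT libraries. Of the 2 tested, Cdh1 fell (82.5 and 85.0 CPM in mutant, against 151 and 158 CPM in WT libraries). Krt18 did not pass, with 2.28 and 2.58 CPM in mutant, against 1.96 and 2.19 CPM in WT libraries (log2 fold change 0.23). B cell markers summed to 5.39 and 5.59 CPM in mutant, against 8.48 and 10.3 CPM in WT libraries. Of the 5, 0 were called by edgeR. An unadjusted edgeR p under 0.05 was found for 1 of the 5, and for 4283 of all 14239 genes tested. Of 6 T and NK cell markers, 5 were not analysed here and Cd2 had 2 and 5 reads in mutant, against 3 and 5 in WT libraries.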

How the data were processed

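RNA of 4 libraries was analysed, 2 of Trem2 mutant and 2 of WT MDSCs. The authors deposited unnormalized whole-number read counts, with 1 line for each Ensembl gene. The labels' protocols describe total RNA depleted of ribosomal RNA. The build GRCm38 (mm10) and the tools STAR 2.5.2a, FastQC and DESeq2 are named in the submitters' processing notes. The sources used here do not give the counter, its strand setting or the annotation. Reads of the 12 members that overlap a gene on the opposite strand therefore cannot be assigned with certainty. These are Mcm7, Gins2, Pola1, Rfc4, Ccne2, Cdk2, E2f8, Mki67, Ccna2, Plk1, Cdc20 and Nusap1. The table lists no gene with fewer than 11 reads. GENCODE M21 named 17422 of 17476 genes and gave positions and exon lengths. The column numbered 3 matches no label number and was used as a mutant library without a number of its own.

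Counts were filtered with filterByExpr, leaving 14239 genes, scaled with TMM and tested with the edgeR 4.0.16 quasi-likelihood test (R 4.3.3, two-sided, genotype as the only term, Benjamini-Hochberg adjustment, 0.05). With 2 residual and 5.71 prior degrees of freedom, the test leans mainly on a spread estimated over all genes. SEs are the size of the log2 fold change over the square root of F, and 95% intervals use the same degrees of freedom. A count of 3 reads corresponds to 0.322 to 0.359 CPM, and covers counting error only. All members were named, with Trem2 and at most 4 rises and 4 falls per other list. The members and lists were chosen with earlier results of these data known, so no test over a list was made. Alternatives were other scalings, filters, DESeq2 1.42.0, limma-voom (limma 3.58.1), the bias-adjusted edgeR form, leaving out noncoding and mitochondrial genes (2690), and leaving out each library, where a lone library takes its spread from the other group.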

Additional observations from a re-analysis of the deposited data

How the results depend on the processing

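With RLE or upper-quartile scaling, no filter, a stricter filter (10 reads or more in 2 libraries, mean of 1 CPM or more) or the bias-adjusted form, the same 8 members were called. Without noncoding and mitochondrial genes Cdk1 and Cenpe were added, with limma-voom Top2a was lost, and with DESeq2 Top2a and Bub1. Under library totals alone, 5015 genes were called against 1873, with 0 G1/S rises, 4 G1/S falls and a G1/S median log2 fold change of −0.34. The G2/M calls then numbered 5, with Kif11 in place of Mki67 and Hmgb2. That scaling turned Mcm3 (−0.37), Mcm4 (−0.28), Mcm5 (−0.25), Mcm6 (−0.13), Mcm7 (−0.36), Rrm1 (−0.12), Gins2 (−0.16), E2f8 (−0.33) and Aurka (−0.15), none called in either fit. Upper-quartile scaling turned Mcm3 and Mcm7 (−0.019 in both), and limma-voom Mcm3 (−0.0061). Leaving out each library gave 581 to 3002 genes called, 0 to 5 G1/S rises, 0 to 1 G1/S falls and 1 to 20 G2/M rises. The medians ran from −0.084 to 0.20 (G1/S) and from 0.47 to 1.47 (G2/M). The sign turned for Mcm2 (−0.31 to 0.015), Mcm3 (−0.23 to 0.26), Mcm5 (−0.083 to 0.36), Mcm7 (−0.085 to 0.14), Rrm2 (−0.071 to 0.84), Pola1 (−0.29 to 0.22), Ccne1 (−0.69 to 0.010), Ccne2 (−0.11 to 0.069), E2f1 (−0.20 to 0.041), E2f8 (−0.013 to 0.11), Ccna2 (−0.033 to 0.87), Aurka (−0.10 to 0.55) and Cdc20 (−0.11 to 1.13). The cause of these changes was not tested. No paired analysis was possible because the columns of the groups share only the number 1. With 2 libraries a group and as few as 14 reads for a member, a gene that did not pass is not shown to be unchanged.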
